A study of Rattus norvegicus with 4 samples.

Results

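Cholesterol synthesis, its control by the transcription factor SREBP2, and the uptake, transport and storage of sterols were followed in cultured rat oligodendrocyte precursor cells (OPCs) whose receptor Gpr17 had been silenced. The module holds 33 genes, listed by pathway role: 8 of the mevalonate and isoprenoid steps, 12 of the squalene and sterol steps, 6 of SREBP2 control, and 7 of uptake, transport, esterification and turnover. A probe on the arrays could be matched to 31 of them, and each of the 31 was tested, out of 11656 tested genes in all. Lbr, a sterol reductase of the inner nuclear membrane, and Cyp46a1, the hydroxylase by which neurons clear cholesterol, have no expression value here.

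The study asked how loss of GPR17 changes the metabolism of maturing OPCs. Primary OPCs came from pooled cerebral cortices of Sprague–Dawley rats at postnatal day 2 and were expanded for 3 days with bFGF and PDGF. At the switch to differentiating medium with thyroid hormone, cultures received, with the reagent Lipofectamine RNAiMAX, 50 nM of a pool of siRNAs against rat Gpr17 (siGPR17) or a non-targeting RNA pool (siNEG). RNA was taken 48 h later, at day 2 of maturation, and 2 samples of each group were hybridized to one-color Agilent arrays, 1 sample per array. The sample titles number them as replicates 1 and 2 and do not say if these are separate cultures. No genetic change of the animals is stated, and the groups share age, medium and transfection and differ in the RNA pool. The animals were pooled, so that differences between animals are not seen. In RNA of whole cultures, fewer cells of a type and less RNA per cell cannot be told apart.

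Cholesterol is built from acetyl-CoA through mevalonate and isoprenoid pyrophosphates to squalene, which is closed to lanosterol and trimmed in a series of steps to cholesterol. When sterols run low in the endoplasmic reticulum, SCAP escorts the membrane-bound precursor of SREBP2 to the Golgi, where site-1 and site-2 proteases release the part that switches on the genes of the pathway, while INSIG proteins hold SCAP back when sterols are plentiful. Oligodendrocytes make much of the cholesterol of their myelin themselves, and mice whose oligodendrocytes lack squalene synthase myelinate late.

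Gpr17 gave normalized signals of 1107 and 1113 on the siNEG arrays and of 652 and 639 on the siGPR17 arrays. Both siGPR17 values lie below both siNEG values, with a log2 fold change of -0.78 (standard error 0.08, n = 2 per group, adjusted p = 0.209 in limma). Signals are background-corrected spot intensities, scaled so that the 75th percentile of every array is equal, and log2 fold changes are siGPR17 against siNEG throughout. A gene was called where it differed by a fold of at least 1.5 with an adjusted p under 0.07, the thresholds of the paper. An exact permutation test of 2 arrays against 2 cannot give a two-sided p under 0.333, and the number of arrays limits the precision of every value. The siNEG arrays lie in slide column 4 and the siGPR17 arrays in slide column 3 of the same slide, so that column and treatment cannot be told apart.

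Markers of the oligodendrocyte lineage were bright on every array. Olig2, the brightest of the 3 lineage genes, was at 58644 and 79884 in siNEG and at 57913 and 58191 in siGPR17 OPCs. Of these 3 genes 3 were lower (median log2 fold change -0.10), but 1 was with spike-in scaling or without siNEG replicate 2, and 2 were with normexp. Mbp, the brightest of 8 genes of mature oligodendrocytes, was at 197178 and 227699 in siNEG and at 256521 and 272873 in siGPR17 OPCs, and Bcas1, of premyelinating cells, was between 61032 and 68122 on the 4 arrays. Among 3 tested precursor markers 3 were lower in siGPR17 OPCs, with the brightest, Pdgfra, at 17719 and 16502 against 14496 and 14646 and a summed signal of 45641 and 46378 against 37703 and 37144. Precursor and myelin transcripts were thus both present on every array.

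Of the 31 tested sterol genes, 24 had a log2 fold change above 0 (77.4%, background 52%), and the median was 0.11, against 0.01 over all tested genes. Without siNEG replicate 1 the count was 18 (58.1%, background 46.7%) with a median of 0.04, and without siNEG replicate 2 it was 27 (87.1%, background 56.9%) with a median of 0.25. Synthesis genes made up 18 of the 24, out of 19 tested, with a median of 0.19 and the same count under each of the 4 other scalings tried, but 15 were above 0 without siNEG replicate 1, with a median of 0.07. Of the 12 genes of control and transport, 6 were above 0, with a median of -0.01. That count was 9 with spike-in scaling, 8 with normexp, 4 with quantile normalization, 3 without siNEG replicate 1 (median -0.08) and 9 without siNEG replicate 2 (median 0.09). The difference between synthesis genes and the others was not tested. Spike-in scaling moved the median of all tested genes to 0.14 and that of the synthesis genes to 0.32. For 17 of the 31 genes the siGPR17 arrays were each above the siNEG arrays (54.8%, background 28.1%), and for 3 each below (9.68%, background 25.3%). Among the 19 synthesis genes, 14 were of the first kind and 1 of the second. The largest difference in the module was a fold of 1.39.

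None of the 31 genes was called by limma (0 of 31, background 0%), in which 8 had an unadjusted p under 0.05 and were higher (25.8%, background 7.43%) and 1 had one and was lower (3.23%, background 8.73%). Their adjusted p in limma lay between 0.209 and 0.995. A fold of at least 1.5 was reached by 0 of the 31, where 5.08% of all tested genes reached it in either direction. With limma's trend and robust option, 184 genes were called (1.58%), and with normexp background correction 112 (0.961%), in both cases with 0 of the 31. The adjusted p alone was under 0.07 for 5 of the 31 with each of these options, and for 4.08% of all tested genes with the former and 2.87% with the latter. With the methods' t-test 0 were called.

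**Figure D1:**
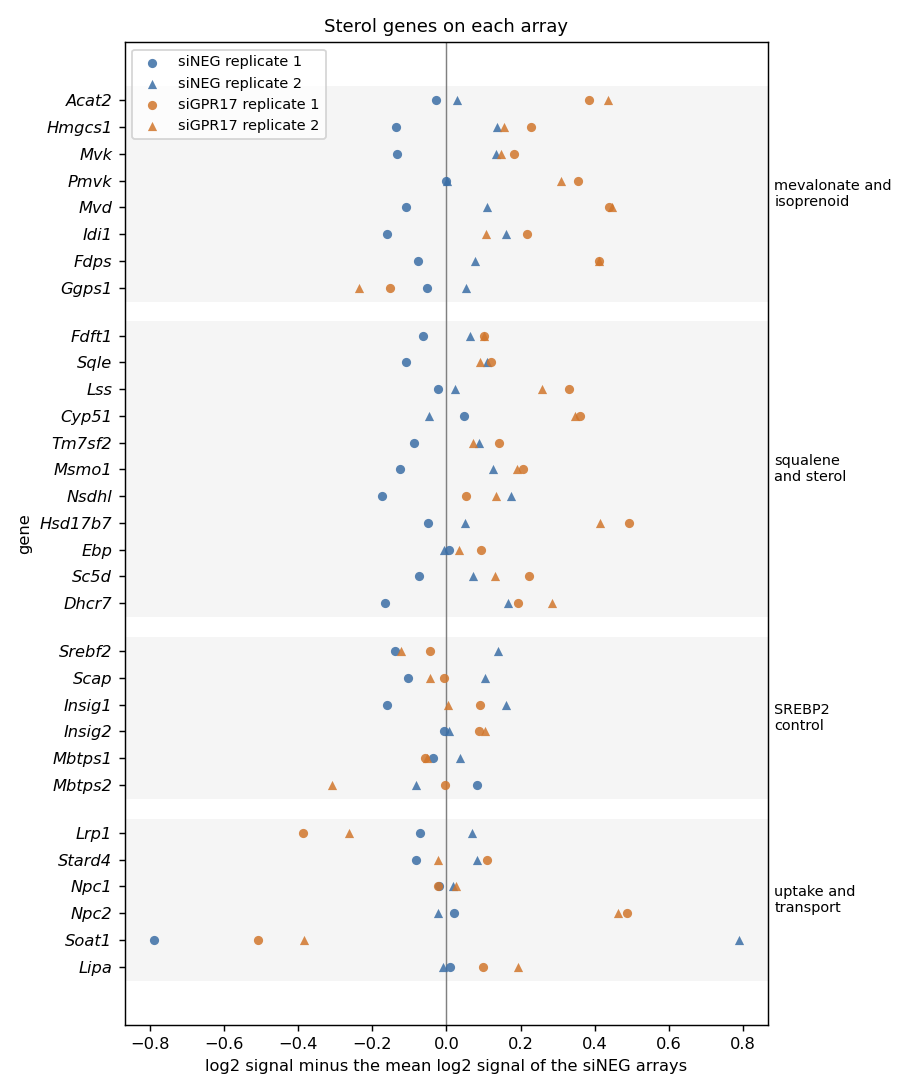
Log2 signal of the 31 sterol genes on each array, minus the mean of the siNEG arrays of the same gene. Blue points are siNEG and orange points siGPR17 arrays, with circles for replicate 1 and triangles for replicate 2. For 14 of the 19 synthesis genes both orange points lie to the right of both blue points (73.7%, against 28.1% of all tested genes).

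Of the 8 genes of the mevalonate and isoprenoid steps, 7 had higher values after silencing (median log2 fold change 0.26). Acat2, the cytosolic thiolase that joins acetyl-CoA units in the opening step, was at 43535 and 45238 in siNEG and at 57976 and 60059 in siGPR17 OPCs. Its siNEG arrays are close together and both siGPR17 arrays lie well above them (log2 fold change 0.41, standard error 0.09, adjusted p = 0.215 in limma). The other 3 probes of Acat2 gave log2 fold changes of 0.20, 0.31 and 0.30. Mvd, the decarboxylase that makes isopentenyl pyrophosphate, was at 14190.0 and 16508 in siNEG and at 20736 and 20853 in siGPR17 OPCs. Here the siNEG arrays are farther apart, and both still lie below the siGPR17 arrays (log2 fold change 0.44, standard error 0.11, adjusted p = 0.234 in limma). Fdps, which makes farnesyl pyrophosphate, the last compound shared with the isoprenoid branches, was at 34054 and 37899.6 in siNEG and at 47813 and 47798 in siGPR17 OPCs. Its siGPR17 arrays nearly coincide above both siNEG arrays (log2 fold change 0.41, standard error 0.10, adjusted p = 0.225 in limma). Pmvk, phosphomevalonate kinase, was at 5504 and 5510.2 in siNEG and at 7039 and 6820.5 in siGPR17 OPCs. Both pairs of arrays are tight and do not overlap (log2 fold change 0.33, standard error 0.09, adjusted p = 0.235 in limma).

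Another set of genes from the same steps differed less between groups than between the siNEG arrays. Hmgcs1, the synthase that adds a further acetyl-CoA to make HMG-CoA, was at 175665 and 212048 in siNEG and at 226297 and 214918 in siGPR17 OPCs. The groups do not overlap, but siNEG replicate 2 lies next to the siGPR17 arrays and siNEG replicate 1 well below, and the log2 fold change of 0.19 (standard error 0.13) became 0.06 without siNEG replicate 1. Mvk, mevalonate kinase, had the same order of arrays, with 2668 and 3216 in siNEG and 3326 and 3244 in siGPR17 OPCs. For Mvk the log2 fold change of 0.17 (standard error 0.13) became 0.03 without siNEG replicate 1. Without siNEG replicate 2 the values of Hmgcs1 and Mvk were 0.33 and 0.30. Idi1, the isomerase of isopentenyl pyrophosphate, was at 34206 and 42802 in siNEG and at 44456 and 41182 in siGPR17 OPCs. The groups overlap for this probe of Idi1 (log2 fold change 0.16, standard error 0.15). Its dimmer probe read 14806 and 15922 in siNEG and 20098 and 18571 in siGPR17 OPCs, with no overlap (log2 fold change 0.33, standard error 0.10), so the size for Idi1 differs with the probe.

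Ggps1 was the 1 synthesis gene with lower values in siGPR17 OPCs. It makes geranylgeranyl pyrophosphate and so leads away from sterols, toward the prenylation of small GTPases. Its signal was 1081 and 1163 in siNEG and 1008 and 952 in siGPR17 OPCs, and the groups do not overlap (log2 fold change -0.19, standard error 0.10, adjusted p = 0.383 in limma). A dimmer probe of Ggps1, at 654 and 792 in siNEG and 617 and 543 in siGPR17 OPCs, was also lower (log2 fold change -0.31, standard error 0.14). Ggps1 kept its sign under every alternative tried, but its log2 fold change shrank to -0.07 with spike-in scaling, less than its standard error.

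The squalene and sterol steps had log2 fold changes above 0 for 11 of 11 tested genes, from 0.06 to 0.45, and their median was 0.18. With siNEG replicate 1 left out, 9 were above 0 and the median was 0.07. With every array, the largest of the 11 was that of Hsd17b7, the reductase that restores the hydroxyl group during removal of the methyl groups of lanosterol, at 2745 and 2940.3 in siNEG and at 3997 and 3784 in siGPR17 OPCs. The arrays of each group are close and the groups lie apart (log2 fold change 0.45, standard error 0.09, adjusted p = 0.214 in limma). A dimmer probe of Hsd17b7 gave 0.38. Cyp51, the demethylase of lanosterol, was at 38046 and 35629 in siNEG and at 47304 and 46841 in siGPR17 OPCs. The siGPR17 arrays of Cyp51 are both above (log2 fold change 0.35, standard error 0.09, adjusted p = 0.234 in limma), as they are on its other probe, with 0.42. Lss, which closes squalene epoxide to lanosterol, was at 6377 and 6594 in siNEG and at 8159.7 and 7752 in siGPR17 OPCs. Its groups lie apart (log2 fold change 0.29, standard error 0.09, adjusted p = 0.261 in limma), and its other probe gave 0.31. These are the 3 genes of the sterol steps with an unadjusted p under 0.05 in limma, all higher (27.3%, background 7.43%).

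The steps into and out of squalene, ahead of Lss, differed little. Fdft1, squalene synthase, where carbon is committed to sterols, was at 10373 and 11329 in siNEG and at 11625 and 11624 in siGPR17 OPCs. Sqle, squalene epoxidase, a control point of the pathway, was at 27863 and 32439 in siNEG and at 32670.3 and 32004 in siGPR17 OPCs. The groups of Fdft1 lie barely apart (log2 fold change 0.10, standard error 0.09) and those of Sqle overlap (log2 fold change 0.11, standard error 0.11). Without siNEG replicate 1 the value of Fdft1 was 0.04 and that of Sqle -0.0046. Without siNEG replicate 2 they were 0.16 and 0.21, and with spike-in scaling both were 0.23. Of the later steps, Msmo1, the oxygenase that begins the removal of methyl groups, was at 93568 and 111276 in siNEG and at 117855 and 116524 in siGPR17 OPCs. Dhcr7, the reductase that finishes cholesterol, was at 13144 and 16538 in siNEG and at 16849 and 17978 in siGPR17 OPCs. On both Msmo1 and Dhcr7 the groups do not overlap, siNEG replicate 1 is far below the other 3 arrays, and the log2 fold changes of 0.20 (standard error 0.12) and 0.24 (standard error 0.15) were both 0.07 without it. Without siNEG replicate 2 the values of Msmo1 and Dhcr7 were 0.32 and 0.41. Sc5d, the sterol desaturase, was at 2744 and 3036 in siNEG and at 3372 and 3159.6 in siGPR17 OPCs, with groups apart (log2 fold change 0.18, standard error 0.10; 0.10 without siNEG replicate 1). Tm7sf2, a sterol reductase, was at 5181 and 5847 in siNEG and at 6074 and 5786 in siGPR17 OPCs, and Nsdhl, a sterol dehydrogenase, was at 1869 and 2379.8 in siNEG and at 2189 and 2314 in siGPR17 OPCs. The groups of both overlap, with log2 fold changes of 0.11 and 0.09, and for Nsdhl the span of the siNEG arrays holds both siGPR17 arrays. Without siNEG replicate 1 the value of Tm7sf2 was 0.02 and that of Nsdhl -0.08, and without siNEG replicate 2 they were 0.19 and 0.27. Ebp, the sterol isomerase, had the smallest value of the squalene and sterol steps, 0.06, from 3077 and 3053 in siNEG and 3271 and 3138 in siGPR17 OPCs, and it was 0.03 without siGPR17 replicate 1.

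The 6 genes of SREBP2 control showed no common direction: 2 had values above 0 and 4 below (median log2 fold change -0.04), and 5 were above 0 with spike-in scaling, 4 with normexp, 1 with quantile normalization, 1 without siNEG replicate 1 and 4 without siNEG replicate 2. Srebf2, which encodes SREBP2 and is itself one of its targets, was at 16868 and 20448 in siNEG and at 17997 and 17049 in siGPR17 OPCs. Both siGPR17 arrays of Srebf2 lie within the span of the siNEG arrays, and its log2 fold change of -0.08 (standard error 0.13) was 0.04 when arrays were scaled on spike-in controls. Scap, the escort of SREBP2, was at 3225 and 3720.2 in siNEG and at 3446 and 3356 in siGPR17 OPCs, again within the siNEG span (log2 fold change -0.03, standard error 0.11; 0.10 with spike-in scaling). Insig1, which holds SCAP in the endoplasmic reticulum and is a sensitive target of SREBP2, was at 33893 and 42375 in siNEG and at 40372 and 38026 in siGPR17 OPCs. Its siGPR17 arrays too lie between the siNEG arrays (log2 fold change 0.05, standard error 0.14), and its other probe gave 0.10.

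Insig2, the INSIG protein less tied to SREBP2, was at 161 and 163 in siNEG and at 172 and 174 in siGPR17 OPCs, a small but non-overlapping difference (log2 fold change 0.10, standard error 0.08). Mbtps1, the site-1 protease, was at 8064 and 8494 in siNEG and at 7947 and 7983 in siGPR17 OPCs. The groups of Mbtps1 lie just apart (log2 fold change -0.06, standard error 0.09), its dimmer probe gave 0.10, and with spike-in scaling the brighter one gave 0.07. The brighter probe gave -0.09 without siNEG replicate 1 and -0.02 without siNEG replicate 2. Mbtps2, the site-2 protease, was dim, at 56.6 and 50.6 in siNEG and at 53.4 and 43.2 in siGPR17 OPCs. Its groups overlap (log2 fold change -0.16, standard error 0.15), and without siGPR17 replicate 2 its value was -0.0031. The other probe of Mbtps2 gave -0.0023. The arrays measure the transcripts of these genes, and the cleavage of SREBP2, by which the pathway is controlled, is not measured by them.

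Of the 6 tested genes of uptake, transport, esterification and turnover, 4 had log2 fold changes above 0 (median 0.02; 3 with quantile normalization, 2 without siNEG replicate 1, 5 without siNEG replicate 2), and Npc2 had the highest of the module. Npc2, the soluble lysosomal protein that hands cholesterol to the membrane protein Npc1, was at 1077 and 1046 in siNEG and at 1488 and 1462 in siGPR17 OPCs. Both pairs of Npc2 arrays are tight and lie apart (log2 fold change 0.47, standard error 0.09, adjusted p = 0.209 in limma), and with the trend and robust option its adjusted p in limma was 0.0349, the lowest of the module, at a fold of 1.39 and in a range from 0.0349 to 0.685 over the alternatives. Npc1 was at 10862 and 11149.8 in siNEG and at 10823 and 11209.8 in siGPR17 OPCs. The groups of Npc1 cover the same span, with a log2 fold change of 0.00 (standard error 0.09). The difference between these partners of lysosomal export was not tested.

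Lrp1, a large endocytic receptor for lipoproteins and other ligands, was at 1810.0 and 1995 in siNEG and at 1452 and 1585 in siGPR17 OPCs. The siGPR17 arrays of Lrp1 each lie below the siNEG arrays (log2 fold change -0.33, standard error 0.11, adjusted p = 0.276 in limma). Lipa, the acid lipase that frees cholesterol from esters in lysosomes, was at 2075 and 2049 in siNEG and at 2208 and 2355 in siGPR17 OPCs, with groups apart (log2 fold change 0.15, standard error 0.09). Stard4, a cytosolic sterol carrier under SREBP2 control, was at 5280.0 and 5910.5 in siNEG and at 6029 and 5502 in siGPR17 OPCs. The groups of Stard4 overlap (log2 fold change 0.04, standard error 0.11), and its dimmer probe gave -0.0043. Soat1, which esterifies cholesterol for storage, was dim, and 1 array decides its value: 24.98 and 74.6 in siNEG and 30.4 and 33.1 in siGPR17 OPCs. The log2 fold change of Soat1 was -0.45 (standard error 0.56) with every array, -1.24 without siNEG replicate 1 and 0.34 without siNEG replicate 2, so that it gives no direction.

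The siNEG arrays differ from each other in a way that touches most of these genes. For 26 of the 31 genes siNEG replicate 2 was above siNEG replicate 1 (83.9%, against 62.1% of all tested genes), with a median log2 difference of 0.15. Differences of this kind were common among bright genes: in the brightest 25% of all tested genes, where 18 of the 31 lie, the median log2 difference between the siNEG arrays was 0.14, and in the dimmest 25% it was -0.15. The median log2 fold change was 0.01 in both of these classes of brightness. Between the siGPR17 arrays the median log2 difference of the 31 genes was -0.03. Without siNEG replicate 1, 15 of the 19 synthesis genes were higher, with a median log2 fold change of 0.07 against -0.02 for all tested genes, and without siNEG replicate 2, 18 were, with 0.32 against 0.04. On the brightest probe of each gene, Acat2, Pmvk, Mvd, Fdps, Lss, Cyp51 and Hsd17b7 keep at least 0.27 without siNEG replicate 1. These are the 7 synthesis genes described above with an unadjusted p under 0.05. Npc2 from transport keeps 0.50. The set depends on the probe. Dimmer probes of Acat2 read 3585, 29210 and 1648 on siNEG replicate 2. Their siGPR17 arrays read 3629 and 3716, 31102 and 30508, and 1973 and 2016. The dimmer probe of Idi1 read 15922 on siNEG replicate 2, against 20098 and 18571. On the other probes of Lss, Cyp51 and Hsd17b7, siNEG replicate 2 stayed below both siGPR17 arrays.

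**Figure D2:**
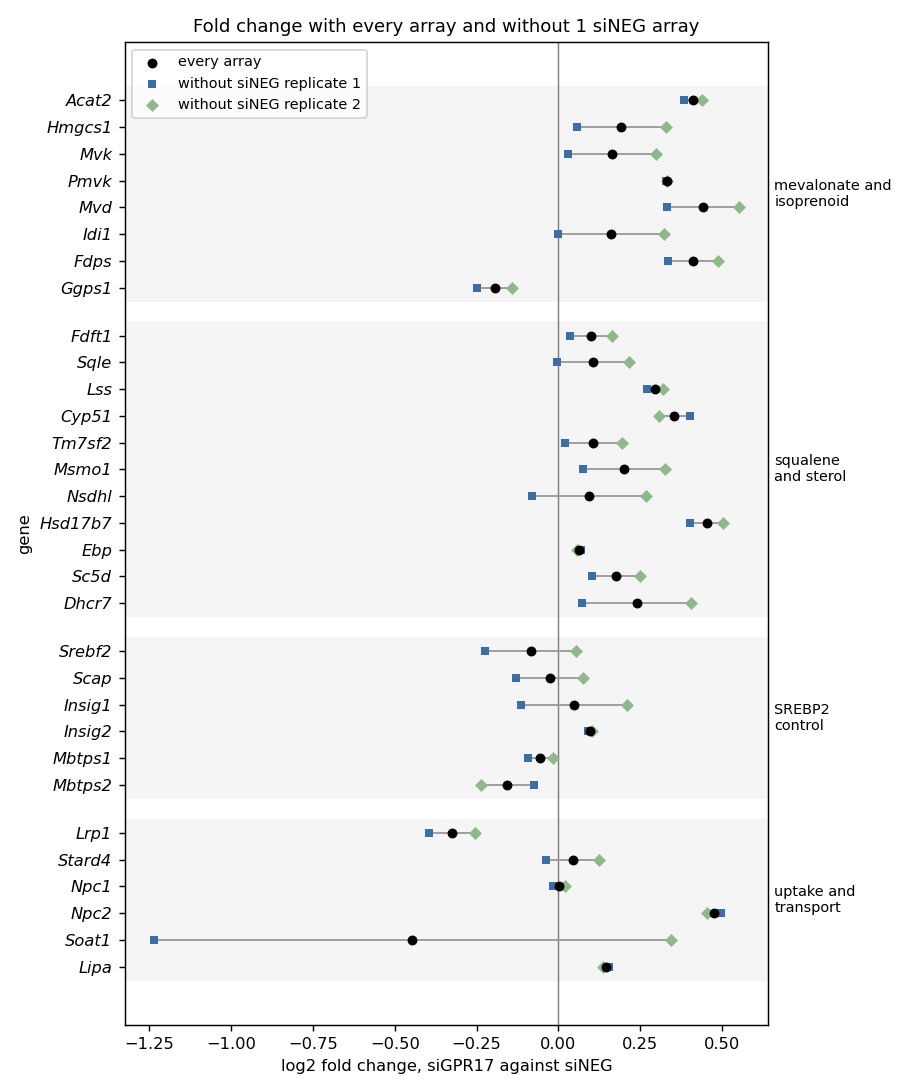
Log2 fold change of each of the 31 sterol genes, siGPR17 against siNEG, with every array (black), without siNEG replicate 1 (blue squares) and without siNEG replicate 2 (green diamonds). Hmgcs1 goes from 0.19 to 0.06 without siNEG replicate 1, while Cyp51 goes from 0.35 to 0.40, and Soat1 changes sign with the array left out.

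Markers of other cell types and stages are given beside these values, and their part in them was not tested. Of 8 astrocyte genes 5 were lower (4 with normexp or spike-in scaling), at log2 fold changes from -1.35 to 0.33, with a summed signal of 116310.1 and 131062 in siNEG and of 118842 and 120066 in siGPR17 OPCs, carried by Aldoc, the brightest. Of 7 tested microglial genes 6 were lower, but 4 were with normexp or spike-in scaling and 3 without siNEG replicate 1, with a summed signal of 3785 and 2547 in siNEG and of 2545 and 3012 in siGPR17 OPCs, mostly from Cx3cr1, and Csf1r and Ptprc were not well above background. Neuronal genes were lower in 7 of 7 (6 with normexp or quantile normalization, 5 with spike-in scaling), with a summed signal of 6852 and 8160.1 in siNEG and of 6673 and 6413 in siGPR17 OPCs and Map2 the brightest. Of the endothelial genes, 3 were tested and 3 were higher, with a summed signal of 306 and 336 in siNEG and of 479 and 487 in siGPR17 OPCs, mostly from Kdr, while Pecam1, Cldn5 and Flt1 were near background. Of the fibroblast and mural genes, 3 were tested and 3 were higher, with Col1a2 the brightest and a summed signal of 439.8 and 334 in siNEG and of 455 and 450.4 in siGPR17 OPCs, and Col3a1, Dcn, Lum, Pdgfrb and Rgs5 were near background. Premyelinating markers were higher in 4 of 5 (median log2 fold change 0.06; 3 of 5 and 0.02 without siNEG replicate 1, 5 of 5 and 0.19 with spike-in scaling) and mature markers in 3 of 8 (median -0.19; -0.06 without siNEG replicate 2, -0.07 with spike-in scaling), with a summed signal of the latter of 342002 and 387804 in siNEG and of 396564 and 409698 in siGPR17 OPCs, mostly from Mbp.

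A second list held 47 related genes of sterol and isoprenoid metabolism, of which 39 were tested. Of these, 23 had a log2 fold change above 0 (59%, background 52%, median 0.03), and 0 were called by limma. The count was 33 with spike-in scaling, where 72.4% of all tested genes were above 0, 18 without siNEG replicate 1 (median -0.03) and 19 without siGPR17 replicate 1 (median -0.0012), so that the sign of the median depends on the arrays used. The groups did not overlap for 14 with higher values (35.9%, background 28.1%) and for 10 with lower values (25.6%, background 25.3%). In limma 6 of them had an unadjusted p under 0.05 and higher values (15.4%, background 7.43%), and 3 had one and lower values (7.69%, background 8.73%). Srebf1, which encodes SREBP1, the relative of SREBP2 that mainly drives fatty acid synthesis, was at 1012 and 1012 in siNEG and at 1648 and 1689 in siGPR17 OPCs. The arrays of Srebf1 lie far apart between the groups (log2 fold change 0.72, standard error 0.08, adjusted p = 0.209 in limma), and it was called with the trend and robust option (adjusted p = 0.0176 in limma, in a range from 0.0176 to 0.665 over the alternatives) and with normexp. Its other probe gave 0.55, while Srebf2 stood at -0.08. Tspo, a cholesterol-binding protein of the outer mitochondrial membrane, was at 315 and 324 in siNEG and at 440.2 and 486 in siGPR17 OPCs (log2 fold change 0.53, standard error 0.10).

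Osbpl2, Dhdds and Mylip of this second list had lower values. Osbpl2, an oxysterol-binding protein relative that moves lipids at membrane contacts, was at 1445 and 1555 in siNEG and at 1007 and 976 in siGPR17 OPCs (log2 fold change -0.60, standard error 0.09, adjusted p = 0.209 in limma). It was called with the trend and robust option (adjusted p = 0.0243 in limma, in a range from 0.0243 to 0.665 over the alternatives) but not with normexp, where its log2 fold change was -0.53. Dhdds, which with Nus1 extends farnesyl pyrophosphate to the chains of dolichol, was at 4621 and 4577 in siNEG and at 3334 and 3217 in siGPR17 OPCs (log2 fold change -0.49, standard error 0.09), and its other probe gave -0.51. Of the 10 tested genes of the isoprenoid branches in this list, Dhdds among them, 7 had higher values (6 with normexp and 9 with spike-in scaling). Mylip, a ubiquitin ligase that removes lipoprotein receptors, was dim, at 56.6 and 62.6 in siNEG and at 44.8 and 41.6 in siGPR17 OPCs (log2 fold change -0.46, standard error 0.10), and with normexp its log2 fold change was -0.19. For Srebf1, Tspo, Osbpl2, Dhdds and Mylip the siGPR17 arrays lie on one side of the siNEG arrays, since the genes named from this list were picked that way.

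The promoters of the sterol genes were read for the motifs known from SREBP2 target genes: TCACNCCAC, a form of the sterol regulatory element, and CCAAT, bound by the factor NF-Y that often acts beside SREBP2. Each was searched on both strands in the 300 bases around the transcript start that RefSeq gives on the assembly GRCr8, for 29 of the 33 genes (not Pmvk, Fdft1, Sqle and Stard4), with Lbr and Cyp46a1 among them. CCAAT was found in 22 of the 29 promoters (75.9%), in 14 of 17 of the synthesis genes (82.4%), in 5 of 6 of uptake, transport, esterification and turnover (83.3%) and in 3 of 6 of SREBP2 control, where 44.4% of the promoters of related genes, 37.5% of all 33469 promoters and 37.8% of those of tested genes hold it. TCACNCCAC was in 0 of the 29 and in 1.12% of all promoters, which says only that these letters are not in the windows read. Among the synthesis genes with an unadjusted p under 0.05 in limma, Acat2 and Cyp51 have no CCAAT in the window. The promoters of the 3 synthesis genes with the largest log2 fold changes that hold CCAAT are printed to show where it lies, with CCAAT or its reverse complement in capitals.
Mvd (chr19:67414925-67415224, minus strand): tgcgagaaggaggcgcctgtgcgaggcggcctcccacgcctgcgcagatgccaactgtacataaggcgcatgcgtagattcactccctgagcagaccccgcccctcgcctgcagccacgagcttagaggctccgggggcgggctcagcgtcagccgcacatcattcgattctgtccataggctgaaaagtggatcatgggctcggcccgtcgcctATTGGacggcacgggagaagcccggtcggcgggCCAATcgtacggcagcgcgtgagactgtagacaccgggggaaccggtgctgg
Fdps (chr2:176804767-176805066, minus strand): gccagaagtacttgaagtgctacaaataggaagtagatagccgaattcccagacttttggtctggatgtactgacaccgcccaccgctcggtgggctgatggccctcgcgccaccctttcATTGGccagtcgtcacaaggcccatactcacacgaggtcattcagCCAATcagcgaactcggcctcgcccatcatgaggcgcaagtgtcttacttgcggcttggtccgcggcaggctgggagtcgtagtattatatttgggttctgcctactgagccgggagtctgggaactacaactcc
Hsd17b7 (chr13:84722705-84723004, minus strand): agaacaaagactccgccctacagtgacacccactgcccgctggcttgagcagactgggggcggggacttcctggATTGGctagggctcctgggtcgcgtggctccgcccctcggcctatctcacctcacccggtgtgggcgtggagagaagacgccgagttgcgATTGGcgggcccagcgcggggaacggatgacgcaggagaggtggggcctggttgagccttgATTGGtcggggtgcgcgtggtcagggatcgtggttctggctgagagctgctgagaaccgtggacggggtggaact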

How the data were processed

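Gene expression was measured in 4 samples of cultured rat OPCs, 2 siNEG and 2 siGPR17, on one-color Agilent arrays. The authors deposited the spot intensity of each array as Agilent Feature Extraction 10.7.3.1 gave it, with background subtracted and no normalization between arrays. Here log2 intensities were taken relative to the 75th percentile of each array, leaving out controls and outlier-flagged spots and averaging the spots of each probe. All 4 arrays gave a value for 45565 probes. The 28016 well above background on at least 2 arrays were tested by limma 3.58.1 (lmFit, then eBayes; R 4.3.3), with Benjamini-Hochberg adjustment over all of them. Between 26997 and 28244 probes per array were well above background. Signals are normalized values multiplied by 1 common factor.

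Accessions in the files were matched to RefSeq names of the assembly GRCr8, which gave 21093 probes a symbol. Of several tested probes of a gene the brightest was used, and the genes so counted are 11656. Named are all genes of the module, Gpr17, the 6 related genes with the largest log2 fold change among those whose groups do not overlap, and of each marker list the brightest gene and those near background. The result of 1 of the 6 is not reported here by itself. The members and lists were chosen with earlier results of these data known.

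Alternatives were normexp (offset 50), quantile, median and spike-in scaling, and other filters on dim probes. Normexp was run on spot and background medians, not on the background-subtracted intensities of the main fit. Further alternatives were the trend and robust option, the methods' t-test, the replicate number as a block, each array left out, and the mean over the probes of a gene.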

Additional observations from a re-analysis of the deposited data

How the results depend on the processing

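Of the 31 sterol genes, 20 kept their sign under every alternative, 16 of them synthesis genes, and none was called under any. Calls in limma over all genes went from 0 to 184 under trend and robust estimation and to 112 under normexp, both of which called Gpr17 (log2 fold change -0.78 and -0.66). With the replicate number as a block, 0 genes were called. The numbers did not pair the arrays (correlation of deviations -0.065 across probes). Where an array is left out, the lone array of its group is assumed to vary like the others.

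Spike-in scaling moved the median log2 fold change of the mevalonate and isoprenoid steps to 0.39, of the squalene and sterol steps to 0.30, of SREBP2 control to 0.086 and of uptake and transport to 0.15, and that of all tested probes by 0.13, to 0.14. With arrays left out in turn, the median of the squalene and sterol steps ranged from 0.074 to 0.27, of SREBP2 control from -0.10 to 0.066, and of uptake and transport from -0.027 to 0.13.

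The sign turned for Srebf2 (0.042), Scap (0.10) and Mbtps1 (0.071) with spike-in scaling, for Scap (0.016) and Mbtps2 (0.0059) with normexp, for Insig1 (-0.010) and Npc1 (-0.012) with quantile normalization, and for Mbtps1 with the mean of its probes (0.022). Leaving out arrays gave log2 fold changes from -0.00047 to 0.32 for Idi1, -0.0046 to 0.21 for Sqle, -0.081 to 0.27 for Nsdhl, -0.22 to 0.054 for Srebf2, -0.13 to 0.077 for Scap, -0.11 to 0.21 for Insig1, -0.037 to 0.13 for Stard4, -0.024 to 0.027 for Npc1 and -1.24 to 0.34 for Soat1. The cause was not tested. The 31 genes were well above background on all 4 arrays.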
